A study of Homo sapiens with 4 samples.

Results

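The RNA that stayed on streptavidin beads with biotinylated miR-491-5p was compared, gene by gene, with the RNA of the lysate from which the beads had been loaded. The genes taken were the 12697 of 60554 annotated genes whose mean normalised count in the miR-491-5p input and pull-down libraries was at least 50. The cells were IGROV1-R10, an established human ovarian cancer line, transfected at 60 nM with the biotinylated miRNA duplex. After mild lysis and removal of the nuclei, 10% of the lysate was set aside as the input, and the rest spent 4 h on the beads, which were washed 5 times to give the pull-down. A second transfection, with a biotinylated control miRNA from a worm, went through the same steps and served as the background. Each of the 4 groups was 1 library made from the pooled RNA of 3 experiments, so no value below has a replicate spread and no test of a difference between conditions was possible. The duplex was added from outside at a high dose to 1 cell line, and a protocol that discards nuclei limits the comparison to RNA that entered the lysate.

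A microRNA is a short RNA that an Argonaute protein carries to messenger RNAs. Pairing usually runs from the seed of the miRNA to a complementary site, often in the 3′ untranslated region, and Argonaute then calls in TNRC6 scaffold proteins and the enzymes that shorten the poly(A) tail and remove the cap. A biotin on the miRNA lets the loaded complex be drawn onto streptavidin together with the RNA it holds. The bait is shown because every ratio below is measured on it. It lies on the plus strand at chr9:20716120-20716141 of GRCh38.p14, and the mature sequence is that of RefSeq, with the seed (bases 2 to 8) in capitals.
miR-491-5p: aGUGGGGAacccuuccaugagg
The endogenous hairpin gene, MIR491, was not itself among the genes taken, with 6 counts in the input and 24 in the pull-down.

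The libraries were deep, with 59588552 counts in the input and 61705443 in the pull-down, and the 12697 genes held 99.8% and 99.6% of them. The control input and pull-down held 47679684 and 62582646 counts. Counts were put on a common scale with DESeq2 size factors over the 4 libraries and are called normalised counts here. A ratio is the log2 of pull-down over input on normalised counts plus 1, and understates the change of genes with few counts. Each interval is a 95% counting interval, which covers counting error only and understates even that, because mates of a read pair were counted singly and no molecular identifiers were used. A gene is called higher on the beads, or held, when its ratio was at least 2-fold up with an interval excluding 0, and lower, or lost, when it was at least 2-fold down. In bulk libraries such as these, fewer cells that make a transcript and less of it per cell cannot be told apart when the inputs of the transfections differ. A pull-down and its own input come from the same lysate.

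On the scale of the size factors most genes had ratios near 0, and the ends of the distribution were held by different kinds of RNA. These factors centre the typical gene near 0 by construction, so held and lost are relative to the typical gene. How much RNA the beads recovered is not given by these counts. The ratio had a median of -0.15 and an interquartile range from -0.51 to 0.27, with extremes of -4.88 and 4.09. In all, 689 genes were higher on the beads (5.43%) and 625 were lower (4.92%), which is 10.3% called in either direction. The higher genes had a median of 98.2 normalised counts in the input, a count that is itself part of the ratio, and 217 of them passed the count minimum only through the pull-down. Over the other 472 that median was 219. Together the higher genes made up 1.01% of the input counts and 3.77% of the pull-down counts. The lower genes had a median of 3278 in the input and went from 11.9% of the counts to 6.03%. Scaling by total counts instead shifted every ratio upwards, the median by 0.32. Then 1357 genes were higher (10.6%) and 128 lower (1.00%), so the higher share of all calls went from 52.4% to 91.4%. Ratios less than 0.32 below 0, such as the median of protein-coding genes, change side with it. For some groups the median, or the number of genes above or below, is therefore also given relative to the median of all genes, which hardly changes with that scaling. The other group medians are given from 0 and move with it.

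**Figure D1:**
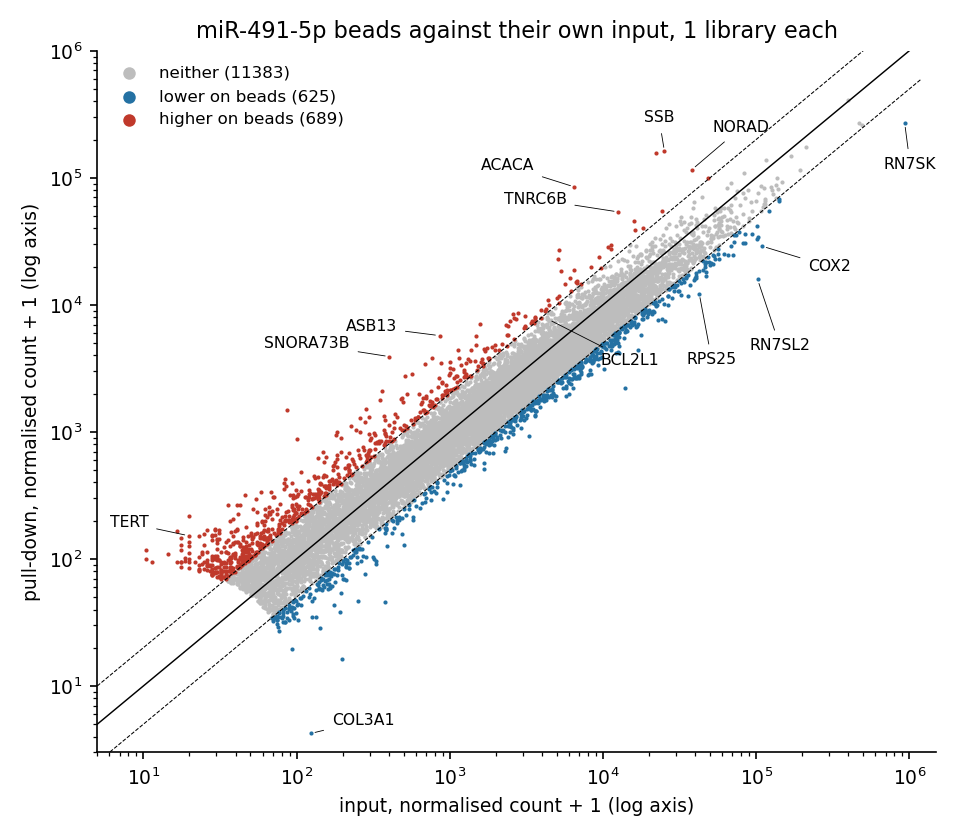
Normalised count plus 1 of each of the 12697 genes in the input (horizontal, log axis) and the pull-down (vertical, log axis) of the miR-491-5p transfection, 1 library each. Points above the upper dashed line are at least 2-fold higher on the beads (689 genes called, red) and points below the lower one at least 2-fold lower (625 genes called, blue); ACACA and SSB stand out at high counts, and RN7SL2 and COX2 lie below.

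Genes close to the count minimum leaned upwards. The 191 genes with a mean of 50 to 55 had a median ratio of 0.31, with 37 higher and 11 lower, and the 225 genes just outside, with a mean of 45 to 50, had a median of 0.35, with 48 higher and 18 lower. Of the genes taken, 353 lay under 50 in the input and entered through the pull-down, and 217 of these were called higher. These 217 are not set apart in the shares of higher genes given below by biotype and list. Another 154 lay under 50 in the pull-down, and 61 of these were called lower. The remaining 12190 genes reached 50 in both libraries, with 472 higher and 564 lower.

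The cell type was checked on marker genes by their summed raw counts. All 10 listed genes of ovarian carcinoma epithelium had counts, 9 were among the genes taken, and their sum was 115739 in the input and 107756 in the pull-down. PAX8, EPCAM, KRT8, KRT18 and KRT19 gave most of these counts. WT1, CDH1, KRT7 and MUC16 were lower, with 939, 373, 181 and 148 raw counts in the input. MSLN had only 10 in the input and 11 in the pull-down and was not among the genes taken. The 7 fibroblast markers summed to 280 and 68, with COL3A1 alone among the genes taken. The 3 endothelial markers summed to 2518 and 4257, almost all of it CDH5, the VE-cadherin gene, with 2443 and 4167 and a log2 ratio of 0.40, while VWF had 40 and 44 and PECAM1 35 and 46. In the control libraries CDH5 had 3918 and 7823. The 10 hepatocyte markers summed to 17 and 36, with FGA and ORM1 at 0 in both libraries. The hepatocyte markers in the control input summed to 2791, against 22 in the control pull-down, and the fibroblast markers to 591 and 63, so the control ratios of such genes carry that difference. Leukocyte markers summed to 20 and 26, with CD3E at 0, and erythroid markers to 2 and 0, with HBB and HBA2 at 0.

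By biotype, structured guide RNAs were highest relative to the input and the abundant transcripts of RNA polymerase III were lowest. Biotypes are those of RefSeq for the 11724 genes that could be named by position, and 973 genes stayed without a name. The 10778 protein-coding genes had a median ratio of -0.17, with 411 higher and 454 lower, and kept 94.1% of the counts in the input and 94.8% in the pull-down. The 549 lncRNA genes had a median of -0.00 and a wider spread, with 78 higher (14.2%) and 43 lower (7.83%), and their share of the counts went from 0.594% to 0.948%. Transcribed pseudogenes stood above that, at a median of 0.32 over 166 genes with 35 higher (21.1%) and 4 lower. Pseudogenes not marked as transcribed stood below, at -0.56 over 181 genes with 18 higher and 53 lower (29.3%), of which total counts left 13.2% lower.

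**Figure D2:**
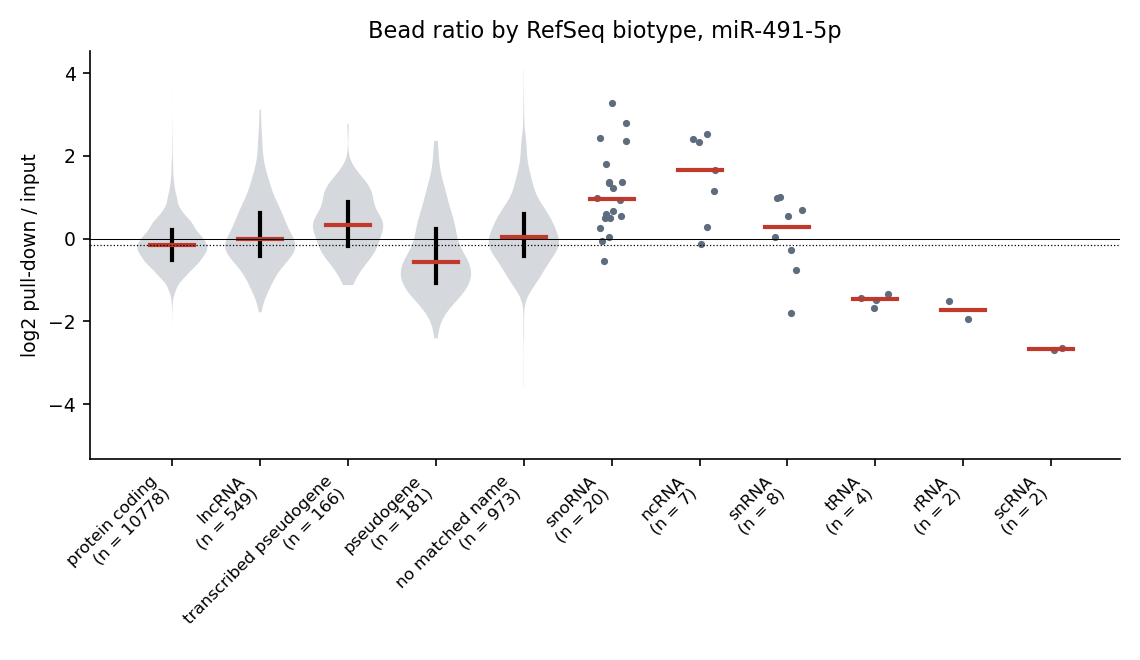
Log2 ratio of pull-down over input by RefSeq biotype for miR-491-5p, with the number of genes under each name. Shapes show the distribution and thick black bars the interquartile range where there are over 100 genes, points show single genes elsewhere, red bars are medians, and the dotted line is the median of all genes; snoRNAs lie mostly above it and mitochondrial tRNAs, mitochondrial rRNAs and the RN7SL genes (scRNA) below.

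Small nucleolar RNAs, which guide the chemical modification of ribosomal RNA, and the scaRNAs, which do so for spliceosomal RNA in Cajal bodies, were the most enriched short RNAs. Of 27 measured, 14 were higher, none was lower, and 26 lay above the median of all genes. The list's median was 1.15 and stood 1.29 above that of all genes. SNORA73B, a box H/ACA RNA at chr1:28508559-28508762, had normalised counts of 402 in the input and 3913 in the pull-down, a ratio of 3.28 (95% interval 3.13 to 3.43). SNORA22 had 44.9 and 315, and SNORD17, of the box C/D class, had 351 and 1793, with ratios of 2.78 and 2.35. All of these were higher in the pull-down library, and SNORA22 passed the count minimum only through it. By class, 6 of 15 SNORA genes, 3 of 5 SNORD genes and 5 of 7 SCARNA genes were higher, with medians of 0.92, 1.24 and 1.65. SCARNA6, SCARNA5 and SCARNA13 had ratios of 2.53, 2.40 and 2.34. The lowest were SNORA14B (-0.54) and SCARNA1 (-0.14). Of the 14 higher genes, 12 were higher on the control beads as well. Most of these RNAs lie in introns of other genes and were counted without strand, so reads of an unspliced host cannot be separated from them.

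RNAs of similar size went the other way. The signal recognition particle RNAs, which dock ribosomes at the endoplasmic reticulum, were among the lowest of all genes. RN7SL2 had 102299 in the input and 15833 in the pull-down, a ratio of -2.69 (95% interval -2.71 to -2.67), and RN7SL3 had 13838 and 2225, at -2.64. These copies are near-identical, so how reads divide between them is uncertain, yet the pseudogene copy RN7SL5P was also lower, at 249.7 and 46.1. RN7SK, which holds the elongation factor P-TEFb inactive, was the gene with the most counts in the input. It had 932915 in the input and 269111 in the pull-down, a ratio of -1.79, and on its own took snRNA-class transcripts from 1.5% of the input counts to 0.544% of the pull-down counts. Vault RNA VTRNA1-3 had 279 and 75.2, a ratio of -1.88. The Y RNA RNY1, a partner of the Ro60 protein, had 1374 and 728, a ratio of -0.92 that was not called, against 1.97 on the control beads. The spliceosomal U4 and U5 RNAs gave a median of 0.29 over 6 genes with none called, where on the control beads their median was 1.77 with 5 higher. RNU4-1 had 505 and 1005 and RNU5B-1 had 79.4 and 65.5, so the members spread on both sides of 0. Under 300 bases of exon length there were 83 genes, and the 26 snoRNAs and scaRNAs among them had a median of 1.1 with 13 higher and none lower, while the other 57 had a median of -0.56 with 7 higher and 19 lower.

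Transcripts of the mitochondrial genome were lower as a class, but to different degrees. All 4 tRNA genes with enough counts and both ribosomal RNA genes were called lower. RNR1, the small-subunit rRNA, had 16958 in the input and 4388 in the pull-down, and RNR2, the large-subunit rRNA, had 70752 and 24742, with ratios of -1.95 and -1.52. Of the 13 mRNAs, which encode respiratory chain subunits, 3 were lower and none higher, and the median was -0.71. COX2 was lowest, with 109768 in the input and 28922 in the pull-down, a ratio of -1.92 (95% interval -1.94 to -1.91), followed by ND3 at -1.70 and ATP6 at -1.58. COX3, which lies next to ATP6 on the same primary transcript, stood apart with 399301 in the input and 409657 in the pull-down, a ratio of 0.04, and was the gene with the most counts in the pull-down. CYTB had a ratio of -0.23 and ND5 of -0.50, while COX1 had 488829 and 259034, at -0.92. On the control beads the 13 mRNAs had a median of -0.09 with COX3 at 1.07 and COX2 at -1.21, so COX3 was above COX2 in both transfections. Whether the transfections differ here was not tested.

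Long noncoding RNAs divided by name and by length. Of a list of 18 well-known lncRNAs and nuclear RNAs, most of them known as nuclear, 10 were measured, 5 were higher and none lower, with a median of 0.93. NORAD, a mainly cytoplasmic RNA that binds Pumilio proteins, had 38155 in the input and 116194 in the pull-down, a ratio of 1.61 (95% interval 1.59 to 1.62). KCNQ1OT1, an imprinted antisense RNA, had 244 and 1030.1, and FTX, from the X-inactivation centre, had 117 and 412. Their ratios were 2.07 and 1.81. MALAT1 of nuclear speckles had 24337 and 54769.7 and NEAT1 of paraspeckles 1236 and 2962, with ratios of 1.17 and 1.26. HOTAIRM1 and JPX were the lowest, both at -0.46, and were not called. The lysate had been cleared of nuclei, and how much nuclear RNA remained in it was not measured.

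Hosts of small RNAs behaved less evenly. Of 26 listed host lncRNAs 22 were measured, with 2 higher, 6 lower and a median of -0.34. MIR17HG, the precursor of a miRNA cluster, had 69 and 306, and SNHG14, the long host of imprinted snoRNAs, had 5040.3 and 11372, with ratios of 2.13 and 1.17. The 6 lower genes were SNHG9, SNHG19, DANCR, SNHG6, SNHG8 and ZFAS1, with exon lengths from 342 to 2285 bases, and under total counts 2 of the 22 were lower. DANCR had 11785 in the input and 4874 in the pull-down and SNHG9 had 330.2 and 95.4, with ratios of -1.27 and -1.78. GAS5 and SNHG1 were level, at -0.00 and -0.07. Among all lncRNAs, 215 named as antisense to another gene had a median of 0.03 with 29 higher and 18 lower, and 74 named as divergent from a neighbour had a median of -0.16 with 7 higher and 7 lower. The highest lncRNA genes were ZFAND2A-DT (99.3 and 873), PRNCR1 (16.7 and 145) and SLC8A1-AS1 (34.5 and 264), and reads of genes that overlap them on the other strand cannot be separated. PRNCR1 and SLC8A1-AS1 passed the count minimum only through the pull-down, so their values are a description. The highest ratio of all was that of an unnamed gene, ENSG00000261069 at chr15:25087661-25088896, with 85.7 in the input and 1478 in the pull-down, a ratio of 4.09 (95% interval 3.77 to 4.41), against 0.45 on the control beads.

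Pseudogenes followed their parents in part. The 57 pseudogenes of ribosomal protein genes had a median of -1.04 with 4 higher and 31 lower, and the other 124 a median of -0.44 with 14 higher and 22 lower. RPL39P3 had 505 and 129, a ratio of -1.96, where the functional RPL39 had 25335 and 7508, a ratio of -1.75. EEF1B2P6 had a ratio of -2.25 and its parent EEF1B2, an elongation factor subunit, -1.28. Reads that fit several places were left out of the counts, and near-identical copies are uncertain for that reason.

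Among the genes that reached the count minimum, the ratio went up with exon length. Without that minimum, over every gene with at least 1 count, the rank correlation of length and ratio turned from 0.25 to -0.18. Length here is that of the joined exons of all transcripts of a gene, which is at least that of any single transcript. The genes were put in 10 bins of near-equal number by length. In the shortest bin, 66 to 1783 bases, the median ratio was -0.47 and 242 of 1270 genes were lower (19.1%, exact binomial interval 16.9% to 21.3%), against 6.17% under total counts and 1.32% without the minimum. In the longest bin, from 10245 bases up, the median was 0.09 and 7 were lower (0.551%). The medians went up at every step between. The share of genes called higher showed no such order: it was 8.19% in the shortest bin, 4.26% in the sixth, and 5.91% in the longest. Genes called lower had a median length of 2216 bases, against 5037 for genes not called and 4492 for genes called higher. Control beads gave the same order, from -0.58 in the shortest bin to 0.26 in the longest.

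**Figure D3:**
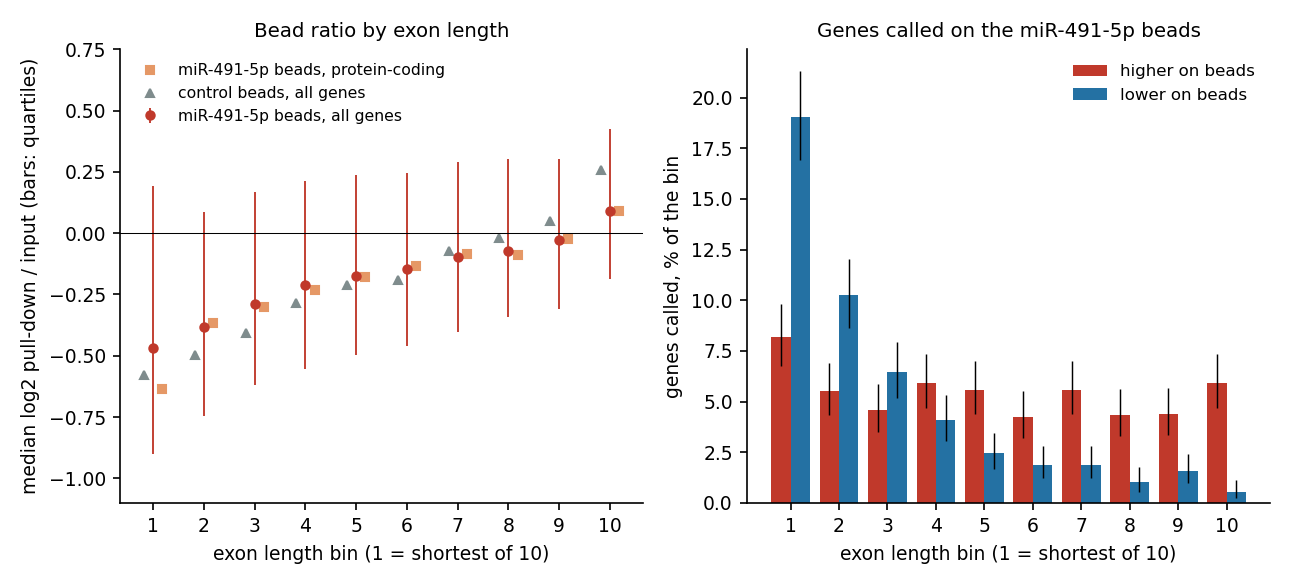
Left, median log2 ratio of pull-down over input in 10 bins of exon length for all genes on the miR-491-5p beads (circles, bars span the quartiles), for protein-coding genes in their own bins (squares) and for all genes on the control beads (triangles). Right, percent of each bin called higher (red) or lower (blue) on the miR-491-5p beads, with exact binomial 95% intervals; the lower calls go from 19.1% in the shortest bin to 0.551% in the longest.

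The relation was also computed within protein-coding genes and within lncRNAs. Over protein-coding genes, binned on their own, the shortest bin had a median of -0.64 with 17.5% lower, and the longest 0.09 with 0.557% lower. Spearman's correlation of length and ratio across genes, which share both libraries, was 0.32 for protein-coding genes, 0.35 for lncRNAs and 0.25 for all. In lncRNAs, in 5 bins, the median went from -0.52 in the shortest, with 7 of 110 higher, to 0.37 in the longest, with 27 of 110 higher. Among the short genes the medians still differed by biotype: in the shortest bin of all genes, 552 protein-coding genes had a median of -0.73, 155 pseudogenes -0.67, 159 lncRNAs -0.36 and 20 snoRNAs 0.95. Short coding genes called higher were rare, 7 of 552. Among them were NR0B2, SNAI1 and POU3F3, which encode transcription regulators and were picked out after their values were seen. The 7 genes of the longest bin that were lower were SP100, SKP1, TXNL1, FAM204A, SEM1, GNAS and 1 unnamed gene, also named after their values were seen.

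Level in the lysate also went with the ratio. Because the input count is part of the ratio, the level was taken from the control input, which is not. Genes under 50 in the miR-491-5p input still entered only through the pull-down, which favours higher ratios in the lowest bin. How much this adds was not tested. Over protein-coding genes, in 5 bins of that level, the median went from 0.16 in the lowest to -0.41 in the highest, with a rank correlation of -0.36. Length kept its order at each level. Between the longest and the shortest of 5 length bins, the medians differed by 0.43 in the lowest bin of level and by 0.73 in the highest. Joined exon number and genomic span went with the ratio less closely, with rank correlations of 0.16 and 0.13. The 242 protein-coding genes with 1 joined exon had a median of -0.19, with 9 higher and 28 lower.

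By function, ribosomal protein and oxidative phosphorylation genes had the most lower calls, and the lists of regulators had medians above that of all genes. Of the ZNF genes 2.95% were higher, and of the homeobox, SOX, FOX and KLF factors 9.26%. The shares were 13.6% for chromatin regulators and 15.4% for immediate early genes. The last 3 shares rest on 5, 6 and 4 genes. The 37 gene lists were drawn up from background knowledge with earlier results of these data known, so their counts describe these libraries and are read against the 5.43% higher and 4.92% lower of all genes. List counts under total counts are read against the 10.6% higher and 1.00% lower of all genes under that scaling.

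**Figure D4:**
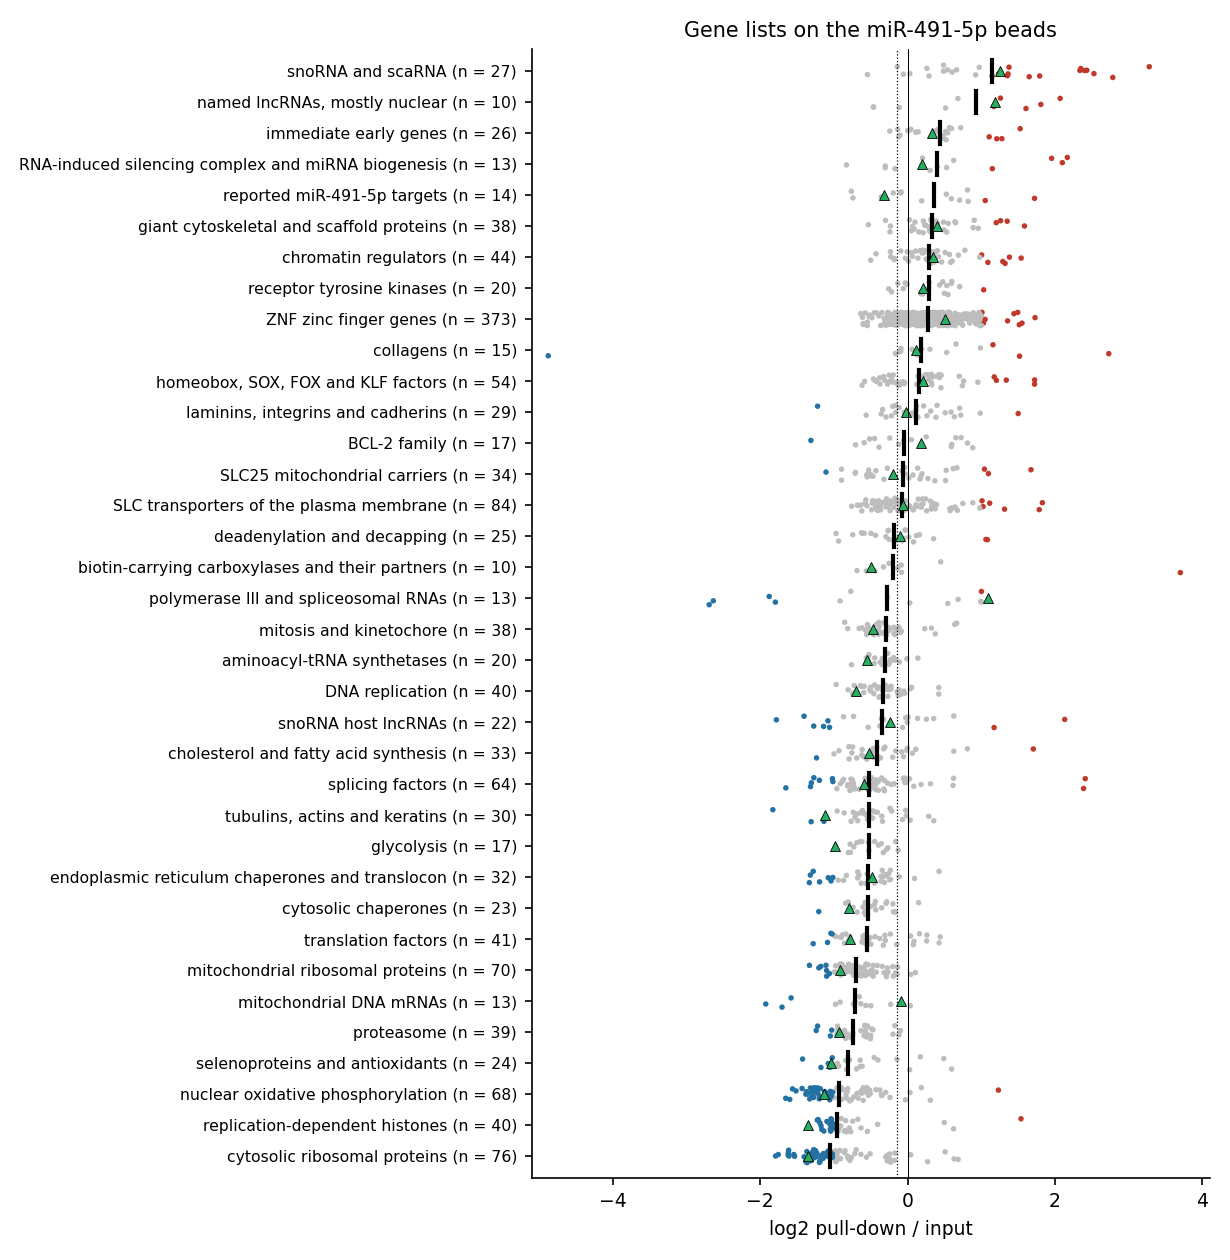
Log2 ratio of pull-down over input on the miR-491-5p beads for the members of each gene list with 10 or more genes, ordered by the list's median. Points are genes (red higher, blue lower, grey neither), black bars are medians, green triangles are the same lists' medians on the control beads, and the dotted line is the median of all genes (-0.15); ribosomal proteins are lowest, at -1.05.

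Ribosomal protein genes had the lowest median of all lists. Of 76 cytosolic ribosomal protein genes none was higher and 42 were lower, with 71 below the median of all genes and a list median of -1.05, which stood 0.90 under it. Small-subunit genes had a median of -1.15 with 19 of 29 lower, and large-subunit genes -0.98 with 23 of 47 lower. RPS25, at chr11:119015712-119018691, had 42509 in the input and 12283 in the pull-down, a ratio of -1.79 (95% interval -1.82 to -1.76), and RPL39 and RPS12 followed at -1.75 and -1.62. A few stood above the rest, up to 0.69 in the small subunit and 0.63 in the large. RPS15A had 17596 in the input and 25036 in the pull-down, and RPS26 had 11341 and 11679.7, with ratios of 0.51 and 0.04. On the control beads RPS15A and RPS26 were at -0.90 and -1.03, within the range of the other ribosomal protein genes there. The list's median there was -1.35, with 65 lower. The 42 genes lower here were all lower there too. Under total counts 14 of the 76 were still lower (18.4%, against 1.00% of all genes under that scaling).

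Translation factor genes had a median of -0.55, with 4 of 41 lower, namely EEF1B2, EEF1D, EIF3H and EIF3E. The poly(A)-binding protein gene PABPC1 had 115700 in the input and 138492 in the pull-down, a ratio of 0.26, and EIF5A had 11272 and 15157, at 0.43, against -1.31 on the control beads. Aminoacyl-tRNA synthetases, which charge tRNAs, had a median of -0.31 with none of 20 called, from FARSB at -0.76 to LARS1 at 0.14, and under total counts that median was 0.01. Mitochondrial ribosomal protein genes had a median of -0.70 over 70, with 7 lower, all of the large subunit and led by MRPL33 at -1.33. Under total counts none of the translation factor genes and 1 of the mitochondrial ribosomal protein genes stayed lower.

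Of 68 nuclear genes of oxidative phosphorylation, whose complexes make most ATP, 32 were lower (47.1%) and 1 higher, with a median of -0.93. Total counts left 9 lower (13.2%), as did ratios taken against genes of the same length bin, for which no share of all genes is given here. By complex, the medians were -0.89 for complex I (14 of 32 lower), -0.56 for complex II (none of 3), -0.60 for complex III (3 of 9), -1.17 for complex IV (6 of 10) and -1.17 for ATP synthase (9 of 14). ATP5F1E, the epsilon subunit of ATP synthase, had 24202 in the input and 7696 in the pull-down, a ratio of -1.65, and COX5A of complex IV had 6009 and 1983, at -1.60. Again a few were level or above. UQCRH had 24159 and 29922 and NDUFB4 had 3489.7 and 3969, where their control ratios were -1.34 and -1.51, and the higher gene, NDUFV2, had only 125 and 296. Glycolysis genes had a median of -0.53 with none of 17 called. GAPDH had 75074 in the input and 45284 in the pull-down, a ratio of -0.73, and LDHB had the lowest ratio, -0.80.

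Genes of protein quality control and redox balance had medians below that of all genes. Of 39 proteasome genes 4 were lower and none higher, with a median of -0.74, and the 15 genes of the core stood at -0.86 against -0.57 for 20 genes of the cap. PSMA7 of the core had 21199.7 in the input and 8976 in the pull-down, a ratio of -1.24. Of 32 endoplasmic reticulum chaperone and translocon genes 7 were lower and none higher, among them SEC61B (-1.33), SEC61G (-1.19), SPCS1 (-1.28) and TRAM1 (-1.32), while the channel subunit SEC61A1 had 5792 and 7789.7, at 0.43. Cytosolic chaperones had a median of -0.54, with only HSPE1, the mitochondrial co-chaperonin, lower among 23. Selenoprotein and antioxidant genes had a median of -0.81 with 8 of 24 lower. Thioredoxin, TXN, had 32100.4 in the input and 11956 in the pull-down, a ratio of -1.42, and the peroxidase GPX1 stood opposite with 4074 and 6167, at 0.60. Its control ratio was -1.64. Under total counts the lower genes numbered 0 for the proteasome, 2 for the endoplasmic reticulum list, 0 for cytosolic chaperones and 1 for the redox list.

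Histone genes of the replication-dependent kind, whose mRNAs end in a stem-loop in place of a poly(A) tail, had a median of -0.95, with 15 of 40 lower and 1 higher. The lower ones included 9 of 10 H2B genes, with all 10 between -1.19 and -0.98, close to the 2-fold limit. Under total counts the histone median was -0.63 and none of the 15 stayed lower. H3C2 had 18083 in the input and 7734 in the pull-down, a ratio of -1.23. The 1 higher gene was matched by position to H4C15, has 4527 bases of exon, far more than a histone coding gene, and its name is uncertain. Abundant cytoskeletal genes had a median of -0.52 with 3 of 30 lower, namely KRT10, TMSB4X and ACTR2, and 1 lower under total counts. KRT10 had 3290.2 and 926, a ratio of -1.83, and ACTB had 139650 and 82079.8, at -0.77. Splicing factor genes had a median of -0.52 with 7 of 64 lower, or 1 under total counts, but 2 were higher. SRSF9 had 2339 and 744 and the Sm-ring genes SNRPD2, SNRPE and SNRPG stood between -1.32 and -1.27. RAVER1, a partner of the polypyrimidine tract-binding protein, had 285 in the input and 1521 in the pull-down, a ratio of 2.41 (95% interval 2.23 to 2.59), and SF3A1 of the U2 snRNP had 5177 and 27102, at 2.39.

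Cell cycle lists lay somewhat below the median of all genes. DNA replication genes stood 0.19 under it, with 30 of 40 below, and mitosis genes 0.14 under it, with 28 of 38 below. DNA replication genes had a median of -0.34 and mitosis genes -0.29, with none of 40 and none of 38 called, and under total counts these medians were -0.02 and 0.03, so their side of 0 is set by the scaling. MCM4 and POLE were the highest replication genes, both at 0.42, and TYMS the lowest at -0.97. The large kinetochore genes KNL1, CENPE and CENPF stood at 0.64, 0.32 and 0.23, above the regulators CDK1 (-0.81) and PTTG1 (-0.85). Lipid synthesis genes had a median of -0.42, with 1 of 33 higher and 1 lower. ELOVL1, which elongates very long fatty acids, had 2585 in the input and 8435 in the pull-down, a ratio of 1.71 against -0.85 on the control beads, and IDI1 of the mevalonate pathway had 10547 and 4478, at -1.24.

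Regulator lists followed. The 373 ZNF zinc finger genes, a large family of DNA-binding repressors, had a median of 0.27 and 326 stood above the median of all genes, but only 11 were higher (2.95%, against 5.43% of all genes) and none was lower. Total counts turned that order, with 53 higher (14.2%, against 10.6% of all genes). ZNF440 had 1695 in the input and 4341 in the pull-down, a ratio of 1.36, and ZNF384 had 403 and 1138, at 1.49. With the control miRNA the same list had a median of 0.51 with 81 higher and 5 lower. Immediate early genes, whose mRNAs are short-lived, had a median of 0.44 with 25 of 26 above the median of all genes and 4 higher: ZFP36, FOSB, EGR1 and NR4A1. FOSB, with 32.4 in the input, passed the count minimum only through the pull-down. ZFP36, which itself destabilises AU-rich mRNAs, had 184 in the input and 532 in the pull-down, and MYC had 5429 and 7912, with ratios of 1.53 and 0.54. JUND had 1991 and 2853, at 0.52, against 4.33 on the control beads. Homeobox, SOX, FOX and KLF factors had a median of 0.15 with 5 of 54 higher, or 9 under total counts, led by HOXA3 and FOXP4, both at 1.72.

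Chromatin regulators, with a median of 0.29, had 6 of 44 higher and none lower. The histone methyltransferases SETD1B, KMT2D and KMT2B, the remodeller CHD9, ARID1B of the SWI/SNF complex and ASXL1 made up the 6. CHD9 had 11276 in the input and 29388 in the pull-down, a ratio of 1.38, and KMT2D had 1456 and 3646, at 1.32. SUZ12 of the Polycomb complex was lowest, at -0.50. Giant cytoskeletal and scaffold proteins had a median of 0.33 with 4 of 38 higher, PLEC and SPTBN1 among them, or 7 under total counts. Both lists are of long genes, with median exon lengths of 11579.5 and 16853.5 bases. Their medians stood 0.44 and 0.48 above that of all genes, and relative to genes of the same length bin they were 0.22 and 0.25. PLEC had 2610.0 in the input and 7837 in the pull-down, and MTOR, at the low end, had 6896 and 4771, with ratios of 1.59 and -0.53.

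At the cell surface the groups were mixed. Receptor tyrosine kinases had a median of 0.29 with 18 of 20 above the median of all genes, and MET, the hepatocyte growth factor receptor, was the 1 called higher, with 48331 in the input and 98859 in the pull-down. Matrix and adhesion genes had medians of 0.19 for 15 collagens and 0.12 for 29 laminins, integrins and cadherins. COL10A1 and COL7A1 were higher from low levels (21.9 and 151, and 29.3 and 85.7), COL27A1 from 818 and 1827, and perlecan, HSPG2, had 986 and 2793. COL10A1 and COL7A1 passed the count minimum only through the pull-down. COL3A1 had the lowest ratio of any gene, with 123 in the input and 3.23 in the pull-down, or 118 and 4 raw counts, and a ratio of -4.88 (95% interval -6.23 to -3.52). It is a fibroblast marker, its control ratio was -5.74, and of the other 6 fibroblast markers COL1A2, DCN, LUM and COL1A1 went from 64 to 5, 44 to 4, 10 to 2 and 40 to 31 raw counts, while THY1 went from 4 to 12 and PDGFRB from 0 to 10. Their part in the result was not tested. Plasma membrane transporters had a median of -0.08 with 6 of 84 higher, and SLC25 mitochondrial carriers -0.06 with 3 of 34 higher and 1 lower, and both medians were above 0 under total counts (0.24 and 0.26). SLC25A23 had 1379 in the input and 4404 in the pull-down, a ratio of 1.67 against -0.88 on the control beads, while SLC25A24 had 23219 and 10779.8, at -1.11. The 7 protocadherin genes had a median of 0.14 with none called.

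The machinery of silencing was itself present on the beads as mRNA. Of 13 genes of the RNA-induced silencing complex and miRNA production, 4 were higher and none lower. All 3 TNRC6 genes, which encode the scaffold that Argonaute recruits, were higher. TNRC6A had 5112 in the input and 22971 in the pull-down, TNRC6B had 12577 and 53899 and TNRC6C had 1139.9 and 4421, with ratios of 2.17, 2.10 and 1.95. Control beads held all 3 at larger ratios, 3.78, 4.21 and 3.68. DICER1, which cuts miRNA precursors, had 18216 and 40426, at 1.15. The 4 Argonaute genes lay between 0.20 and 0.63 and were not called, and PRKRA, a DICER1 partner, was lowest at -0.83. Among 25 deadenylation and decapping genes, with a median of -0.19 that became 0.13 under total counts, XRN1 and PATL1 were higher. XRN1, the 5′ exonuclease, had 4216 and 8938 and PATL1, a decapping scaffold, had 3621 and 7568, with ratios of 1.08 and 1.06 here and 1.09 and -0.51 on the control beads. CNOT7, a deadenylase, and LSM1 were lowest, at -0.97 and -0.94.

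Streptavidin also binds proteins that carry biotin naturally. Of 10 genes for biotin-carrying carboxylases, their partner subunits and biotin handling, only ACACA was called. ACACA, the cytosolic acetyl-CoA carboxylase at chr17:37084988-37406818, had 6515 in the input and 84736 in the pull-down, a ratio of 3.70 (95% interval 3.66 to 3.74). With the control miRNA it had 7154 and 201298, a ratio of 4.81. The other 9 lay between -0.69 for MCCC1 and 0.45 for ACACB, and the list's median of -0.19 became 0.12 under total counts.

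Targets of miR-491-5p reported elsewhere, listed from background knowledge, numbered 22, of which 14 were measured. Their median was 0.36, with 10 of 14 above the median of all genes, 2 higher (FOXP4 and GIT1, or 5 under total counts) and none lower. FOXP4, a forkhead factor, had 131 in the input and 433 in the pull-down, and GIT1, a scaffold of focal adhesions, had 1657 and 3440.4, with ratios of 1.72 and 1.05. BCL2L1, the antiapoptotic BCL-xL gene at chr20:31664452-31723989, had 4385 in the input and 7706 in the pull-down, a ratio of 0.81 (95% interval 0.76 to 0.87). EGFR had 6987 and 10546, at 0.59, and KDM4B, FGFR4 and HMGA2 stood at 0.82, 0.71 and 0.53. BIRC5, an inhibitor of apoptosis, was among the lowest, at -0.74. On the control beads the list had a median of -0.32 with none higher and 1 lower, where BCL2L1 was at -0.46, FOXP4 at -0.40, GIT1 at -0.32 and EGFR at 0.16. The wider BCL-2 family had a median of -0.05 over 17 genes, which became 0.27 under total counts, with BIK lower at -1.31 and no gene higher, where total counts gave 3 higher and none lower. BMF and BCL2L11, which promote death, stood at 0.88 and 0.65, and MCL1, which opposes it, had 27858 and 28879.5, at 0.05.

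Few highly expressed transcripts were called higher. Of 5502 genes with a mean of at least 2000, 99 were higher and 330 lower. Over all 12697 genes the numbers were 689 higher (5.43%) and 625 lower (4.92%). SSB, which encodes the La protein that binds the ends of polymerase III transcripts, had 25221 in the input and 161254 in the pull-down, a ratio of 2.68 (95% interval 2.66 to 2.70). This mRNA alone was 0.323% of the pull-down counts, from 0.0405% of the input. ASB13, a ubiquitin ligase adaptor, had 857 and 5725, STK40, a pseudokinase, had 759.6 and 3800.2, and FAM222B had 691 and 3423, with ratios of 2.74, 2.32 and 2.31. The rest of the 99 went down to 2-fold.

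The 99 were sorted into 3 groups by their ratio on the control beads. There were 42 that were also higher on the control beads, with a median exon length of 10702.5 bases, among them ACACA, SSB, SF3A1, the TNRC6 genes and NORAD. Another 36 had a control ratio above 0 that was not called. The last 21 had a control ratio below 0, with a median of 1.38 here and -0.35 there, and a median length of 4859 bases. The signs of these medians are set by how the group was chosen. Of these 21, 4 had a control interval that includes 0, and scaling by total counts, which raises the control ratios by 0.14, left 14 below 0. STK40 belongs to these, with 1720.5 and 1597 in the control input and pull-down, but its control ratio of -0.11 and that of SENP2 (-0.04) are above 0 under total counts. So do SAMD4B, ERF, ELOVL1, SLC25A23, TM4SF1, CARM1, ATP6V0D1, PATL1 and GIT1, which were picked out after their values were seen. SAMD4B, a translational repressor, had 1491 and 5689 with miR-491-5p and 3116 and 2334 with the control, and TM4SF1, a tetraspanin-like surface protein, had 6097 and 16249 and 12706 and 6788. In STK40, SAMD4B and TM4SF1 the miR-491-5p input lay below the control input, and the miR-491-5p pull-down above the control pull-down. Choosing genes by both ratios favours that order.

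**Figure D5:**
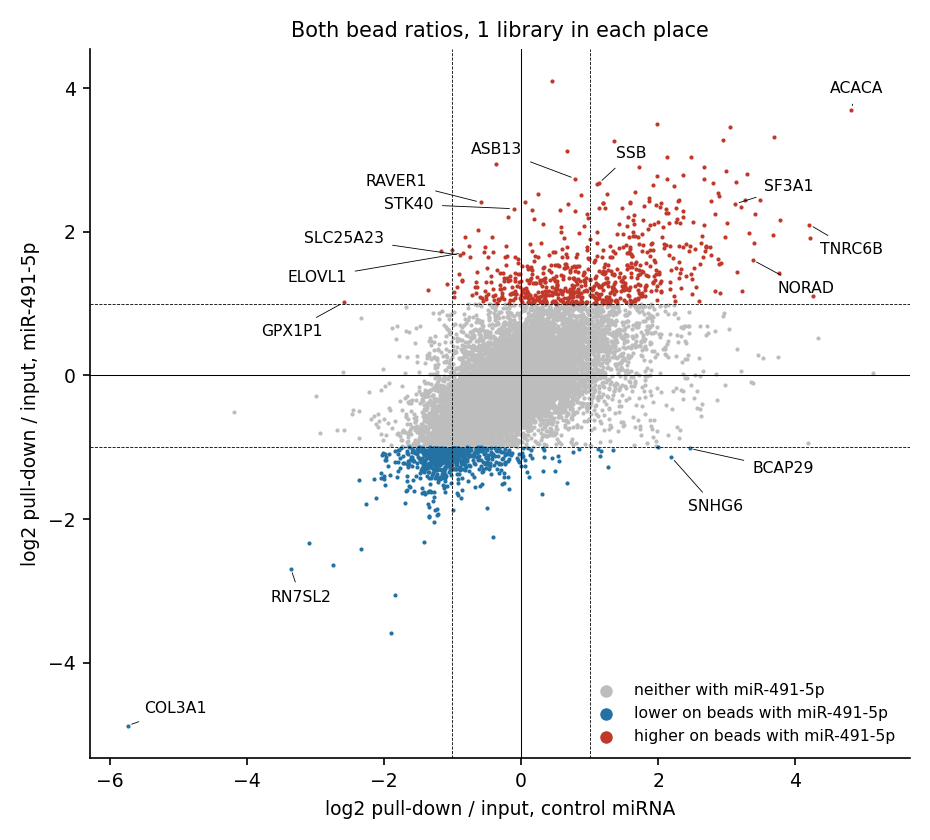
Log2 ratio of pull-down over input with the control miRNA (horizontal) and with miR-491-5p (vertical) for the 12697 genes, coloured by the call with miR-491-5p, with dashed lines at 2-fold. ACACA, TNRC6B and NORAD are far up in both, while RAVER1, SLC25A23 and ELOVL1 are high with miR-491-5p and below 0 with the control.

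Across all genes the ratios of the transfections, which share no library, had a Pearson correlation of 0.62 and the same rank correlation. On the control beads 1089 of the same genes were higher (8.58%) and 1267 lower (9.98%). Of the 689 genes higher with miR-491-5p, 341 were higher with both, which is 49.5% of these and 31.3% of the control's, and 343 were called in neither direction with the control. The 341 shared genes were 41.1% protein-coding with 57 lncRNAs and a median length of 3906 bases, and the 343 were 78.1% protein-coding with 20 lncRNAs and a median of 4947. Of the 625 lower genes, 360 were lower with both, 57.6% of these and 28.4% of the control's. TERT, the catalytic subunit of telomerase, and LRRN3, a leucine-rich repeat protein, had 18 raw input counts each and passed the count minimum only through the pull-down, so their values are a description. TERT had 18.8 and 151 with miR-491-5p and 45 and 34.6 with the control, whose interval of -1.02 to 0.29 includes 0, and LRRN3 had 18.8 and 218 and 20.6 and 178. With 1 library in each place, none of these differences from the control could be tested.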

How the data were processed

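Whole-number read counts per gene were used as the authors deposited them, without normalization. Per the file headers, featureCounts 1.5.0-p1 counted reads on GENCODE release 24 and hg38, without regard to strand, leaving out duplicates and reads that fit several places or genes. Overlapping, antisense and near-identical genes are therefore uncertain. STAR, GRCh38 and DESeq2 1.10.1 appear in the submitters' processing notes.

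Size factors came from DESeq2 1.42.0 over all 4 libraries, at 0.957 for the input and 1.24 for the pull-down with miR-491-5p. The intervals are 1.96 standard errors of the 2 counts, with 0.5 added to each. Names came from RefSeq positions on GRCh38.p14 in 4 stages of decreasing strictness. A shift of 3 Mb left 1005 chance matches where 41279 genes had matched, and a stricter rule named 11101 of the 12697 genes and changed no name. Named genes held 97.0% of the counts.

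The genes, the 37 lists and the rule for named genes were chosen with earlier results of these data known. The rule took the 12 highest and 12 lowest ratios, the 8 highest and 8 lowest with a mean of at least 2000, the 3 highest and 3 lowest of each biotype with at least 10 genes, the 8 genes with the most counts in each library, the 3 largest ratios of each list with any member described by its role, and BCL2L1, EGFR, TNRC6A, TNRC6B and ACACA; some genes that it takes are not reported here. The calculation was tested on simulated counts of 12897 genes for the miR-491-5p ratio: all genes changed 4-fold (100.0%) and 45.0% of those changed 2-fold were called, and 0.0079% of 12697 unchanged genes. The simulated counts held counting error only, with no spread from handling, amplification or experiment, and were scaled by their own median ratio. They check the arithmetic and give no error rate for the calls above. Seed sites in transcripts were not analysed here. The alternatives, with edgeR 4.0.16 for TMM factors, are given in the closing section.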

Additional observations from a re-analysis of the deposited data

Results flagged for a closer look

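Called in opposite directions by the beads of the 2 transfections were 13 genes, each at least 2-fold from its own input with a counting interval excluding 0. With 1 library in each place, the difference was not tested. Many lie close to the 2-fold limit, and with both transfections scaled by total counts, a setting chosen after seeing the data, only UNC93B1, TSNAX-DT and GPX1P1 stayed called in opposite directions (3 of 13). Higher with miR-491-5p and lower with the control were PHOSPHO1, a phosphatase of bone mineralisation (ratios of 1.75 and -1.01), UNC93B1, a chaperone of Toll-like receptors (1.74 and -1.17), CLEC2L (1.27 and -1.08), the divergent transcript TSNAX-DT (1.18 and -1.35) and the pseudogene GPX1P1 (1.02 and -2.58). GPX1P1 is close in sequence to GPX1, so its reads are uncertain. Lower with miR-491-5p and higher with the control were the histone gene H2BC7 (-1.00 and 2.00), BCAP29 of the endoplasmic reticulum (-1.02 and 2.46), TMEM263 (-1.02 and 1.12), the unnamed gene ENSG00000276529 (-1.04 and 1.34), the Notch ligand DNER (-1.05 and 1.17), the adenylate kinase AK6 (-1.12 and 1.15), the snoRNA host SNHG6 (-1.14 and 2.19) and BOLA3, which acts in iron-sulfur cluster assembly (-1.27 and 1.27).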

How the results depend on the processing

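No paired analysis was possible because each group has 1 library. Depth did not limit the abundant genes, but counts say nothing of the spread between experiments, which the pooling hides. DESeq2 factors over the 2 libraries gave 683 higher and 713 lower genes, TMM factors 745 and 626, and a pseudocount of 5 gave 653 and 601. Total counts gave 1357 and 128, or 10.6% and 1.00% of all genes. Then 13.2% of pseudogenes (29.3% as reported), 6.17% of the shortest length bin (19.1%), 18.4% of ribosomal protein genes (55.3%) and 13.2% of oxidative phosphorylation genes (47.1%) were lower. With every gene of at least 1 count the numbers were 2624 and 1023, with 3.42% of pseudogenes and 1.32% of the shortest length bin lower, 21.7% of snoRNAs and scaRNAs higher (51.9%), and a rank correlation of exon length and ratio of -0.18 in place of 0.25. A minimum of 500 left 217 higher and 451 lower of 8790 genes. At that minimum 60.0% of pseudogenes (exact binomial interval 36.1% to 80.9%) and 23.5% of the shortest length bin were lower. The snoRNAs and scaRNAs left were all higher (100.0%), but they were few, with an interval of 47.8% to 100.0%. Calls at 4-fold gave 97 and 10, with 1.1% of pseudogenes, 0.709% of the shortest length bin, and 0% of ribosomal protein and 0% of oxidative phosphorylation genes lower, and 25.9% of snoRNAs and scaRNAs higher. Calls at 1.5-fold gave 1603 and 2623 of 12697 genes, with 49.2%, 45.3%, 80.3% and 76.5% lower in the same order. A filter on the control input, chosen after seeing the data, gave 492 and 664, with 38.9% of pseudogenes and 21.9% of the shortest length bin lower. Taken against genes of similar length, 7.18% of pseudogenes, 26.3% of ribosomal protein genes and 13.2% of oxidative phosphorylation genes were lower. The share of all genes lower on that measure is not given here, so these shares cannot be read against it. Fewer or more genes and a shifted centre follow from how these settings are built; beyond that, the cause was not tested. Of 1940 other values over 243 results, 1654 stayed close to the reported ones, 285 moved and 1 turned in sign.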

Other observations

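By chromosome, which no comparison above used, the miR-491-5p ratio was highest on 19 and 22 and lowest on X and the mitochondrial genome. The 857 genes of chromosome 19 had a median of 0.04, with 559 above the median of all genes, and the 309 genes of chromosome 22 had a median of 0.02, with 188 above it. The 384 genes of the X chromosome had a median of -0.28, with 152 above. On the control beads the medians were -0.24, -0.26 and -0.30 for 19, 22 and X, so that 19 and 22 lay below the control's median of all genes, -0.15. These differences between transfections could not be tested. The 973 genes without a name had a median of 0.04, with 132 higher (13.6%) and 61 lower (6.27%).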
